A study of Mus musculus with 12 samples.

Results

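The response of lactoferrin knockout peritoneal cells to LPS was measured in 6 of the 12 RNA-seq libraries of the series. It was defined as the 3 knockout libraries from mice injected with LPS against the 3 knockout libraries from mice injected with PBS, taken from the labelled agent and not from any measured value. LPS is the lipopolysaccharide of the outer membrane of Gram-negative bacteria, and PBS is the buffered saline given as its control. All 6 libraries are labelled as coming from C57BL/6J mice with lactoferrin knockout. The other 6 libraries are labelled as coming from wild-type C57BL/6J mice, 3 with PBS and 3 with LPS. They enter only the estimate of the spread and the comparison of the genotypes. The RNA was total RNA from cells of the peritoneal lavage, with no sorting named, so each level is a mean over all cells that the lavage held. The dose, the time between injection and lavage, the age and sex of the mice and the kind of deletion are given by none of the sources used here. The titles of the knockout libraries name wild-type mice beside a knockout code, while their descriptions and agents name the knockout, and the agents were followed. The labels number 3 libraries per group and do not tie each of them to its own mouse. The p-values therefore rest on the spread among libraries, which may be technical.

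LPS is bound by Ly96 (MD-2) and Tlr4 at the cell surface, helped by Cd14. Myd88 carries the signal to NF-kB and AP-1, which switch on cytokine and chemokine genes, and Ticam1 (TRIF) with Ticam2 (TRAM) carries it to interferon regulatory factors, which switch on interferon beta and then the interferon-induced genes. Both arms also induce their own inhibitors. The resting peritoneal cavity is known to hold large macrophages that express Gata6, a smaller set of macrophages and dendritic cells, B cells including B-1 cells, and mast cells, and neutrophils and monocytes enter it in inflammation. Lactoferrin is an iron-binding protein of the secondary granules of neutrophils and of secretions such as milk, and it can bind LPS.

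Chemokine genes on chromosome 5 and Il6 were among the genes that rose together, so the 250 bases before their start sites are shown here, as RefSeq gives them for GRCm38.p6. Capitals mark matches on either strand to the kB motif, searched as GGG followed after 2 bases of any kind by TT and after 1 more by CC, or as GGG followed after 3 bases by TTCC. In Cxcl10 they also mark the match to an interferon-response-like motif, searched as GAAA followed after 2 bases by GAAA. Overlapping matches were merged into a single stretch.
Cxcl1, chr5:90890995-90891244, plus strand: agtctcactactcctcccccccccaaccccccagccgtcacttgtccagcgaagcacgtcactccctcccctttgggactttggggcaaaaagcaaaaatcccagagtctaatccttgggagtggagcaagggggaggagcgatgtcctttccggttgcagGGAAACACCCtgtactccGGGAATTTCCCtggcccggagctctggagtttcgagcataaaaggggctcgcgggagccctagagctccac
Cxcl2, chr5:90903649-90903898, plus strand: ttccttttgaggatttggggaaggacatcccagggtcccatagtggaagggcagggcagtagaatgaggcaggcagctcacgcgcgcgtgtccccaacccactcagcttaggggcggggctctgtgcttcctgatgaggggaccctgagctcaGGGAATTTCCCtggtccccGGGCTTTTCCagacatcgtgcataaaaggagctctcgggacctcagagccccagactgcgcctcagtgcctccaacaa
Cxcl3, chr5:90785851-90786100, plus strand: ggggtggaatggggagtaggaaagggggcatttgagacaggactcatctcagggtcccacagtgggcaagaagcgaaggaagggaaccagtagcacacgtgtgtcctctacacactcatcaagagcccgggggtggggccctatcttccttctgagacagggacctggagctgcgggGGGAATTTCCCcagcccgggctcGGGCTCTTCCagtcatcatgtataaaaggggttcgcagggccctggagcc
Cxcl10, chr5:92348890-92349139, minus strand: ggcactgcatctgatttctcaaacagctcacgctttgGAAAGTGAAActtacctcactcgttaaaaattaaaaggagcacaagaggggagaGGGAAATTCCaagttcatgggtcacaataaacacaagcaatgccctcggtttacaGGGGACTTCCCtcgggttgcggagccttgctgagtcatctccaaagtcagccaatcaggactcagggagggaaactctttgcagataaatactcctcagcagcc
Il6, chr5:30012864-30013113, plus strand: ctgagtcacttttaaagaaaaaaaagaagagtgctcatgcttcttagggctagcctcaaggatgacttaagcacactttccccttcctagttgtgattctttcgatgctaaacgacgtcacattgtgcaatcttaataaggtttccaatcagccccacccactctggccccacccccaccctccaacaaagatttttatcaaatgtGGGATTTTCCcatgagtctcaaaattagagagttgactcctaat
In Cxcl1, Cxcl2 and Cxcl3, neighbouring genes for neutrophil-attracting chemokines, a pair of kB stretches lay close together, beginning 89 and 71, 97 and 78, and 73 and 50 bases before the start. In Cxcl10, a chemokine gene for T and NK cells, they began 159 and 104 bases before it, and in Il6 the only stretch began 44 bases before it. A kB match was found in 2301 of 32851 such windows (7.0%) and the interferon-response-like match in 978 (2.98%). Of the 15 genes with the largest rise described below, 10 were in the RefSeq table and 3 of those held a kB match, namely Cxcl1, Cxcl3 and Cxcl10. Of the 15 with the largest fall, 12 were in the table and 4 held a kB match, namely Cd300lb, Idh1, Myadm and Rasa3. These matches describe letters in a window, and factor binding was not measured.

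Levels are given in FPKM, fragments normalised to transcript length and to library size, for replicates 1, 2 and 3 in that order. Changes are differences of means, LPS less PBS, on the log2(FPKM + 1) scale with their SE, which understates the change of genes of low level. Adjusted p-values come from limma with Benjamini-Hochberg adjustment over all genes tested, two-sided, with a threshold of 0.05. Of 21851 genes, 9841 reached a mean level of 1 FPKM across the 12 libraries and were tested. In the knockout 1958 of these rose with LPS (19.9%) and 3277 fell (33.3%), so 53.2% changed. A change above 1 was found upward in 475 genes (4.83%) and downward in 1030 (10.5%). All 3 LPS libraries lay above all 3 PBS libraries in 24.6% of genes tested, and all 3 below in 41.3%. The median change over all genes was -0.12. With median-of-ratios scaling the median was -0.003, with 2659 genes higher and 2600 lower, so the excess of falls depends on how the libraries are scaled. Counts of list members are to be read against these shares, and the lists were chosen with earlier results of these data known.

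Totals lay between 343874 and 388129 FPKM over the 12 libraries, with 13921 to 14574 genes above 0. Read totals are not stated in these sources, so counting intervals cannot be stated, and how many reads stand behind values near 0 is unknown. Spearman correlations within groups were 0.987 to 0.988 for knockout PBS and 0.973 to 0.981 for knockout LPS. In wild type they were 0.934 to 0.975 for PBS and 0.985 to 0.991 for LPS. The lowest were those of wild-type PBS replicate 3, 0.934 and 0.949, and that library enters the estimate of the spread. Knockout LPS replicate 1 stood apart in haemoglobin transcripts and other erythroid markers, whose summed level was 1895 FPKM there and 5.90 to 47.3 FPKM in the other 5 knockout libraries. Wild-type LPS replicate 2 was the other library rich in them, and without both libraries 1557 genes rose and 2856 fell. Ltf, the targeted gene on chr9:111019271-111042767 of GRCm38, was at 0.183, 0.258 and 0.212 FPKM in the knockout PBS libraries and 0.117, 0.0832 and 0.0699 FPKM in the knockout LPS libraries. Wild type was at 1.43 ± 0.402 FPKM with PBS and 0.593 ± 0.639 FPKM with LPS (SD, n = 3), above every knockout library of the same treatment (exact permutation, p = 0.1 in each, the smallest that 3 against 3 allows). Which part of the gene was deleted is not given, and at a mean under 1 FPKM Ltf was not among the genes tested.

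The knockout response was led by Nos2, the inducible nitric oxide synthase, and Csf3, the gene of the granulocyte growth factor G-CSF. Nos2 (chr11:78920787-78960254) was at 1.83, 0.928 and 2.93 FPKM in the PBS libraries and 68.7, 149 and 109 FPKM in the LPS libraries, a change of 5.24 ± 0.31 (adjusted p = 6.02e-07). Csf3 (chr11:98701263-98703629) was at 0.286, 0.946 and 0.189 FPKM with PBS and 49.6, 47.6 and 62 FPKM with LPS, a change of 5.22 ± 0.22 (adjusted p = 1.01e-07). The lowest LPS library exceeded the highest PBS library many times over in both genes. The largest fall was that of Ccr2, the receptor through which monocytes follow Ccl2. Ccr2 (chr9:124101950-124113557) was at 58.2, 44.6 and 48.9 FPKM with PBS and 2.9, 1.73 and 1.82 FPKM with LPS, 23.6-fold lower by means, with a change of -4.05 ± 0.17 (adjusted p = 9.95e-08).

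**Figure D1:**
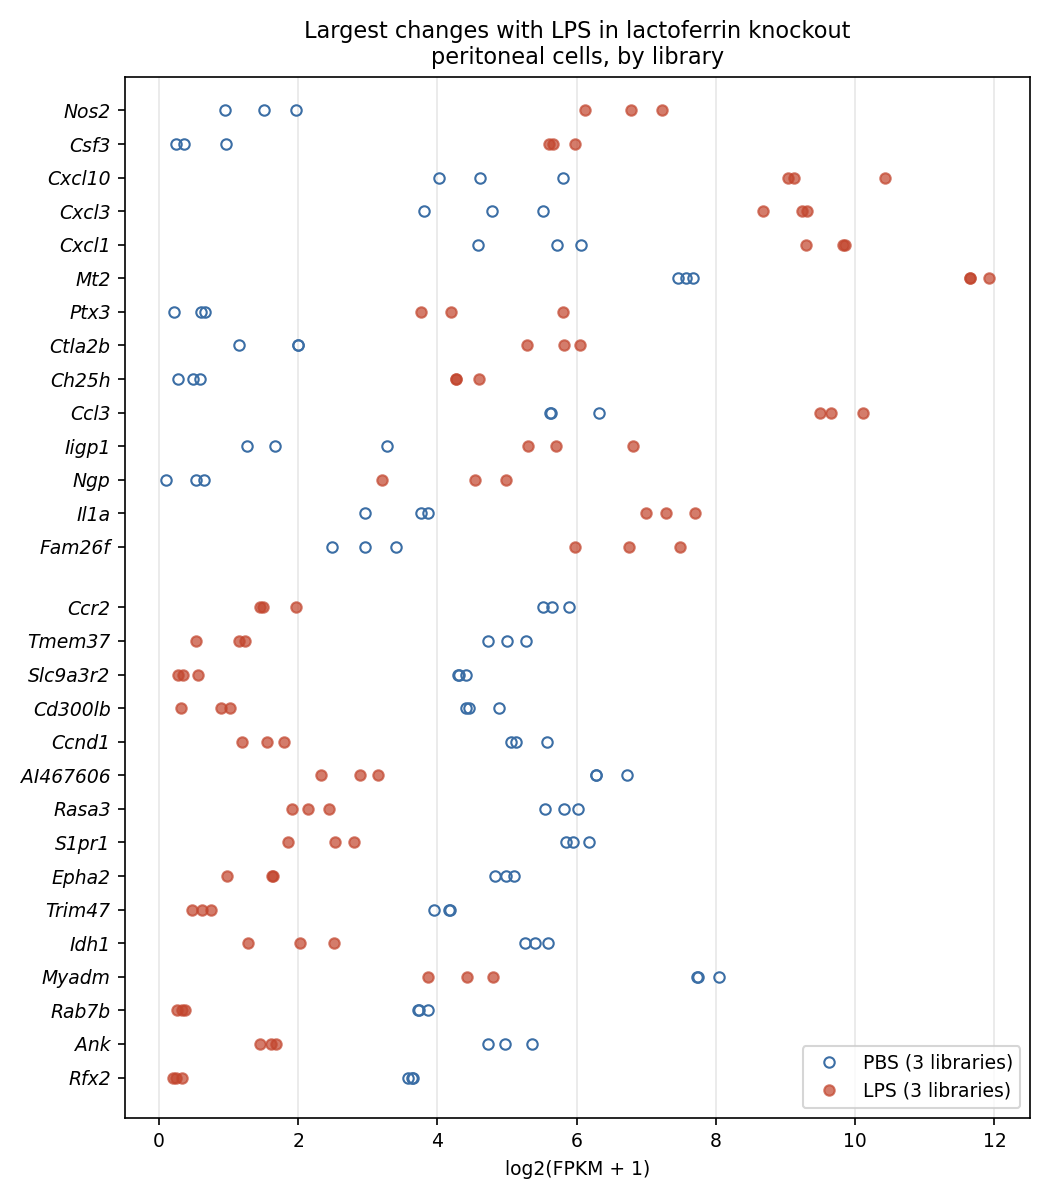
Level of 14 of the 15 genes with the largest rise (upper block) and the 15 with the largest fall (lower block) in each knockout library, on the log2(FPKM + 1) scale. Open blue circles are the 3 PBS libraries and filled red circles the 3 LPS libraries, and by the rule that chose the genes the groups do not overlap. Nos2 changed by 5.24 and Ccr2 by -4.05.

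Among the 22 genes that sense LPS and relay its signal, 4 rose and 8 fell, with a median change of -0.23. These shares were near those of all genes tested. Tlr4 itself fell, from 15.4 ± 1.39 to 8.58 ± 2.69 FPKM (SD, n = 3), a change of -0.82 ± 0.19 (adjusted p = 0.00449). Ticam2, the adaptor that joins Tlr4 to Ticam1, fell further, from 10.5, 10.5 and 10.1 FPKM to 2.05, 1.78 and 2.49 FPKM, a change of -1.88 ± 0.18 (adjusted p = 1.37e-05). Cd180, a Tlr4-like receptor, changed by -2.15 ± 0.4 (adjusted p = 0.000995), and Tlr13, a sensor of bacterial ribosomal RNA, by -2.12 ± 0.33 (adjusted p = 0.000301). Irak4, the kinase recruited first by Myd88, fell by a smaller margin, -0.7 ± 0.09. The 4 that rose were Tlr2 (0.81), Irak2 (0.7), Myd88 (0.61) and Ly96 (0.52), and only 2 of them rose without PBS replicate 1. Tlr2 was short of the threshold without PBS replicate 1 or 3 or LPS replicate 1 or 3, adjusted p up to 0.0769, Ly96 short of the threshold without PBS replicate 1 or LPS replicate 3, adjusted p up to 0.128, and Myd88 short of the threshold without PBS replicate 2, adjusted p 0.0562. Cd14, abundant in both groups, was at 908 ± 167 and 1183 ± 221 FPKM (SD, n = 3), and its change of 0.38 ± 0.29 did not pass (adjusted p = 0.292).

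The NF-kB subunits and the inhibitors that NF-kB induces rose as a group. Of 25 measured, 21 rose and 0 fell by limma (0 at an unadjusted p under 0.05), with a median change of 1.12, and in 24 all 3 LPS libraries lay above the PBS libraries. Tnfaip3 (A20), a ubiquitin-editing enzyme that ends NF-kB signals, was at 21.3, 18.6 and 26.4 FPKM with PBS and 244, 235 and 341 FPKM with LPS, a change of 3.56 ± 0.28 (adjusted p = 4.01e-06). Socs1, an inhibitor of cytokine and interferon receptors, rose by 2.6 ± 0.25, and Traf1, an adaptor of TNF receptors, by 2.37 ± 0.16. Dusp2, a phosphatase of MAP kinases, rose by 2.15 ± 0.23, and Zc3h12a (regnase-1), which degrades cytokine mRNA, by 1.95 ± 0.15. Nfkbia, the inhibitor that holds NF-kB in the cytoplasm, rose from 201 ± 14.3 to 492 ± 40.4 FPKM (SD, n = 3). Among the subunits, Nfkb1 rose by 0.53 ± 0.11, while Rela at 0.23 ± 0.1 did not pass (adjusted p = 0.0825).

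Of 28 secreted cytokines and growth factors, 19 were tested, of which 12 rose and 3 fell, with a median change of 1.40. Il1a, an alarm cytokine of the interleukin-1 family, was at 12.6, 13.6 and 6.77 FPKM with PBS and 126, 154 and 207 FPKM with LPS, a change of 3.8 ± 0.33 (adjusted p = 7.8e-06). Il1b changed by 1.4 ± 0.32 (adjusted p = 0.00326), and Il1rn, the antagonist of their receptor, rose from 153 ± 10.5 to 572 ± 146 FPKM (SD, n = 3). Il6, an inducer of the acute-phase response, was at 55.1, 48.8 and 23.3 FPKM with PBS and 300.3, 117 and 215 FPKM with LPS. Its groups did not overlap and the change was 2.27 ± 0.64 (adjusted p = 0.0114, and 0.0525 without the 2 libraries rich in erythroid transcripts). Tnf rose by 1.67 ± 0.4 (adjusted p = 0.00445), from a mean of 21.8 to 70.8 FPKM. The anti-inflammatory cytokine Il10 rose by 2.45 ± 0.38, and Il27, which acts on T cells, by 2.2 ± 0.3. Tnfsf9 (4-1BB ligand), a costimulator of T cells, rose by 2.56 ± 0.35, and Edn1, the vasoconstrictor endothelin, by 2.82 ± 0.24.

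The 3 cytokine genes that fell were Spp1 (osteopontin), Csf1, the macrophage growth factor, and Tgfb1. Csf1 was at 47, 29 and 28.5 FPKM with PBS and 14, 10.6 and 18.6 FPKM with LPS, a change of -1.21 ± 0.22 (adjusted p = 0.000922), and Spp1 changed by -2.01 ± 0.64 (adjusted p = 0.0197, short of the threshold without PBS replicate 1 or LPS replicate 2, adjusted p up to 0.0862). Tgfb1 changed by -0.38 and, with median-of-ratios scaling, by -0.24 (adjusted p = 0.0632), where 2 of the list fell. The genes for the granulocyte and the macrophage growth factor thus moved in opposite directions in the same libraries.

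Of 26 chemokines 21 were tested, of which 13 rose and 3 fell, with a median change of 1.86. This was the highest median of the 24 pathway lists, but not without a filter on low values, with a pseudocount of 5 FPKM, or without PBS replicate 3 or LPS replicate 2 (1.18, 1.19, 1.68 and 1.38). Cxcl1 was at 51.8, 66 and 22.9 FPKM with PBS and 628, 905 and 923 FPKM with LPS, a change of 4.2 ± 0.46 (adjusted p = 3.07e-05). Cxcl3 was at 26.5, 44.8 and 13.1 FPKM and 631, 409 and 600.1 FPKM, a change of 4.37 ± 0.39 (adjusted p = 8.06e-06). The groups were far apart in both genes. Cxcl2 rose from 128 ± 35.9 to 1128 ± 277 FPKM (SD, n = 3), a change of 3.14 ± 0.31. These 3 are the genes whose promoter windows hold paired kB stretches above.

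Cxcl10 was at 23.3, 15.2 and 55 FPKM with PBS and 526, 1373 and 555 FPKM with LPS, a change of 4.72 ± 0.45 (adjusted p = 1.23e-05). LPS replicate 2 was the highest, as it was for Cxcl9, the related ligand of Cxcr3, at 5.88, 16.9 and 12.8 FPKM in the LPS libraries. Ccl3 and Ccl4, chemokines made by macrophages, rose together. Ccl3 changed by 3.9 ± 0.29 (adjusted p = 2.58e-06) and Ccl4 by 3.61 ± 0.17 (adjusted p = 1.72e-07). Ccl4 was at 534, 560.5 and 539 FPKM in the LPS libraries, a narrow spread beside PBS values of 58.6, 39.99 and 35.6 FPKM. Ccl2, the ligand of Ccr2, rose by less, 1.18 ± 0.34 (adjusted p = 0.0134, short of the threshold without LPS replicate 2, adjusted p 0.0504). The 3 that fell were Ccl6 (-1.13), Cxcl14 (-0.83) and Ccl17 (-0.72). Cxcl13, a B cell chemokine and one of the 10 most abundant transcripts with LPS, was at 2945 ± 1285 and 2760.01 ± 416 FPKM (SD, n = 3), with a change of -0.0048 ± 0.4 that did not pass and whose sign depends on the scaling (0.14 with median-of-ratios scaling).

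Of 19 chemokine and chemoattractant receptors tested, 12 fell and 4 rose, with a median change of -1.27. S1pr1, the receptor that guides lymphocytes out of tissue, was at 71.5, 56.7 and 60.5 FPKM with PBS and 5.97, 4.79 and 2.62 FPKM with LPS, a change of -3.6 ± 0.25 (adjusted p = 1.44e-06). C3ar1, the receptor of the complement fragment C3a, changed by -3.04 ± 0.23 (adjusted p = 2.8e-06), and Cxcr4 by -2.22 ± 0.24 (adjusted p = 2.83e-05). Cxcr2, the neutrophil receptor for Cxcl1, Cxcl2 and Cxcl3, was at 69.2, 32.7 and 40.5 FPKM with PBS and 16.1, 1.87 and 5.97 FPKM with LPS, where the LPS libraries differed several-fold among themselves, and its change was -2.72 ± 0.55 (adjusted p = 0.00176). Ccr1, which binds Ccl3, fell by 2.25 from a mean of 162 FPKM. The 4 receptors that rose were Ccrl2 (1.85), a non-signalling receptor for chemerin, the formyl peptide receptors Fpr1 (1.69) and Fpr2 (1.24), and Ccr7 (1.38), which guides dendritic cells to lymph nodes.

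**Figure D2:**
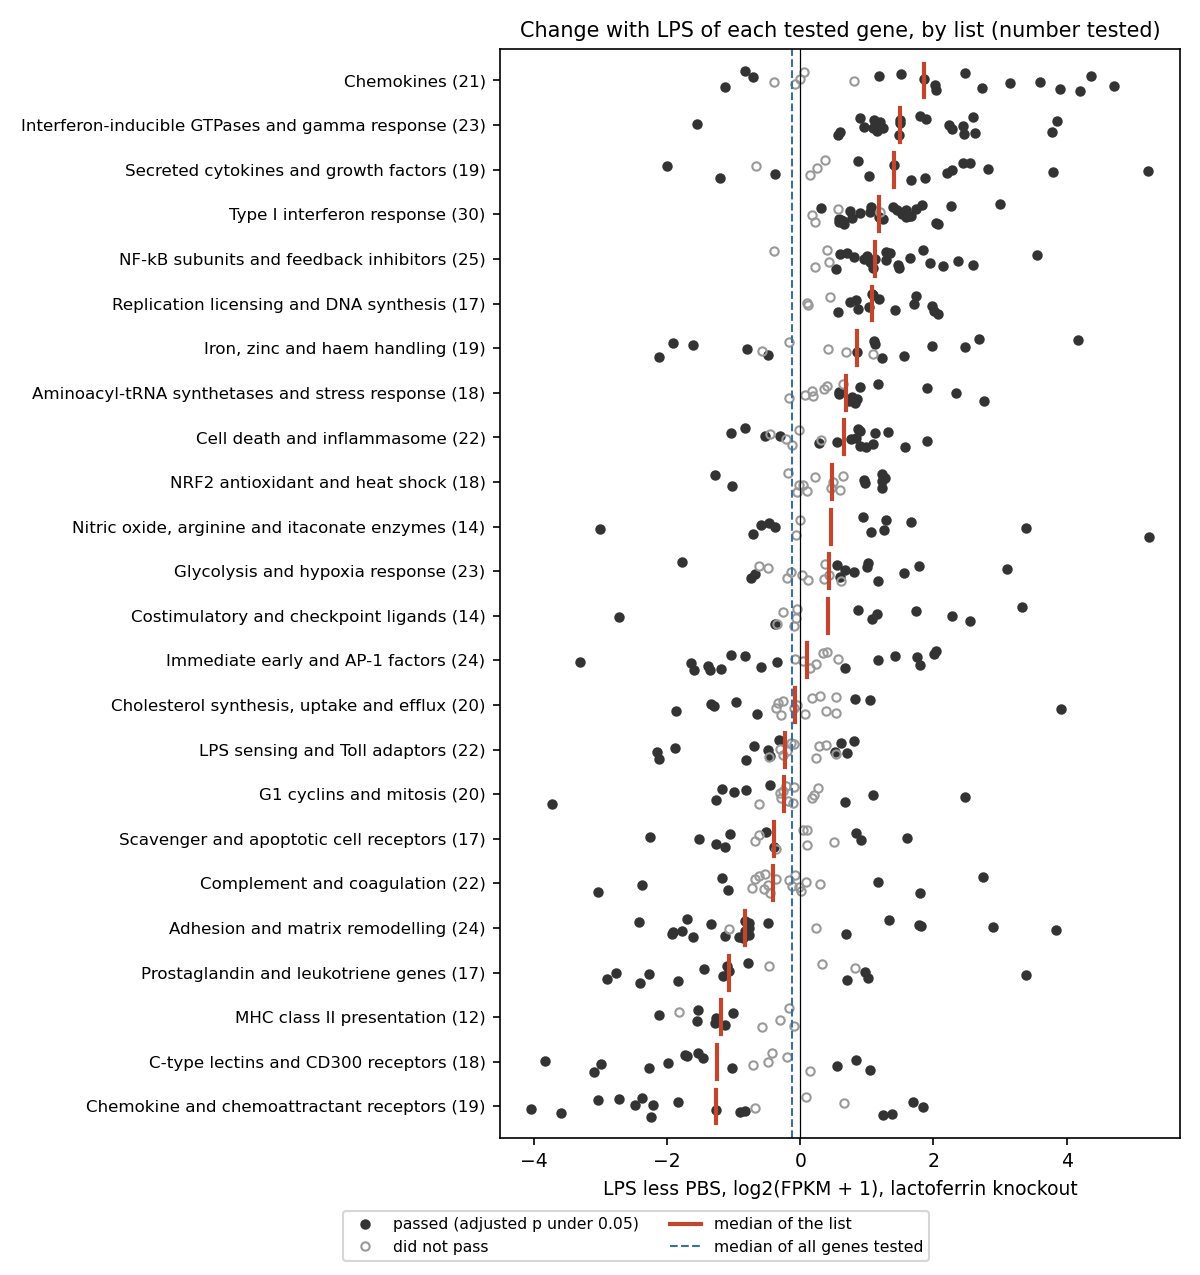
Change with LPS of every tested member of the 24 pathway lists in the knockout, LPS less PBS on the log2(FPKM + 1) scale, with the number tested after each name. Each circle is a gene, filled where the adjusted p was under 0.05, the red bar is the median of the list and the dashed blue line the median of all genes tested, -0.12. In this fit chemokines have the highest median, 1.86, and chemokine and chemoattractant receptors the lowest, -1.27.

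Interferon-induced genes rose almost throughout. Of 30 genes of the type I interferon response, 26 rose and 0 fell by limma (0 also at an unadjusted p under 0.05), with a median change of 1.18. Of 24 interferon-inducible GTPases and genes of the gamma response, 23 were tested, of which 22 rose and 1 fell, with a median of 1.5. Iigp1, an immunity-related GTPase that attacks the vacuoles of parasites, was at 2.18, 1.4 and 8.71 FPKM with PBS and 51, 111 and 38.2 FPKM with LPS, a change of 3.86 ± 0.51 (adjusted p = 0.000109). Fam26f was at 6.75, 4.58 and 9.61 FPKM and 61.8, 178 and 107 FPKM, a change of 3.79 ± 0.33 (adjusted p = 6.66e-06). In both genes LPS replicate 2 was the highest, as in Cxcl9 and Cxcl10. Gbp5, a guanylate-binding protein, rose by 2.63 ± 0.34, and Isg15, a ubiquitin-like modifier, from 120.3 ± 41.5 to 498 ± 119 FPKM (SD, n = 3). Ifng, which encodes interferon gamma, was at 0.455, 0.33 and 0.293 FPKM with PBS and 3.6, 11.1 and 3.66 FPKM with LPS, again with replicate 2 the highest, and changed by 2.23 ± 0.35 (adjusted p = 0.000335).

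Within the type I list the members did not move alike. Ifit1, an RNA-binding effector, rose by 1.74 ± 0.41 (adjusted p = 0.00434). Its neighbours Ifit2 and Ifit3 overlapped between the groups. Ifit2 was at 9.0, 3.84 and 26.2 FPKM with PBS and 16.4, 17 and 5.63 FPKM with LPS, a change of 0.22 ± 0.58 (adjusted p = 0.769), and Ifit3 changed by 0.17 ± 0.53 (adjusted p = 0.799). PBS replicate 3 held the highest value of Ifit2 and Ifit3 of all 6 libraries, and without PBS replicate 2 both differences turned negative (-0.37 and -0.35). The only member of the gamma list to fall was Ciita, the regulator of MHC class II genes, from 6.1 ± 0.817 to 1.44 ± 0.544 FPKM (SD, n = 3).

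Arginine can be turned by Nos2 into nitric oxide or by arginase into ornithine. Arg1, the arginase of resting peritoneal macrophages, was at 695, 556 and 458 FPKM with PBS and 139, 31.9 and 72.5 FPKM with LPS, a change of -3.01 ± 0.52 (adjusted p = 0.00062), opposite in direction to Nos2. Arg2, the mitochondrial arginase, rose by 1.67 ± 0.33 (adjusted p = 0.00159). Of 15 genes for nitric oxide, arginine and itaconate enzymes, 14 were tested, of which 7 rose and 5 fell, and with median-of-ratios scaling only 1 fell. The count that fell was 2 without PBS replicate 1 or 3 or LPS replicate 2 or 3. Slc7a2, which imports arginine, rose by 1.29 ± 0.43 (adjusted p = 0.0241, short of the threshold without PBS replicate 1 or 3 or LPS replicate 1 or 3, adjusted p up to 0.090). Acod1, the itaconate enzyme, rose by 0.95 ± 0.3 (adjusted p = 0.0209, short of the threshold without PBS replicate 1 or LPS replicate 3, adjusted p up to 0.069).

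Among 17 tested of 19 genes of prostaglandin and leukotriene synthesis and reception, 4 rose and 10 fell, with a median change of -1.08. Ptgs2 (COX-2), the inducible cyclooxygenase, was at 5.89, 4.38 and 3.44 FPKM with PBS and 38.3, 68.6 and 68.9 FPKM with LPS, a change of 3.39 ± 0.27 (adjusted p = 4.46e-06). Ptgs1 (COX-1), the constitutive enzyme, was at 26.3, 28.4 and 23.6 FPKM and 4.42, 3.29 and 4.69 FPKM, a change of -2.41 ± 0.24 (adjusted p = 1.54e-05). Ptgs1 was thus above Ptgs2 in every PBS library and below it in every LPS library, in FPKM, which is per length. Ptgis, the prostacyclin synthase, changed by -2.77 ± 0.29, and Ltc4s, the leukotriene C4 synthase, by -2.9 ± 0.56 (adjusted p = 0.00129). Alox5ap, which presents arachidonic acid to 5-lipoxygenase, fell from 412 ± 28.5 to 116 ± 24.6 FPKM (SD, n = 3). The others that rose were Hpgd (1.01), which degrades prostaglandins, Pla2g4a (0.97), which frees arachidonic acid, and Ptges3 (0.7, short of the threshold without PBS replicate 1 or 3 or LPS replicate 1 or 2, adjusted p up to 0.090).

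Genes that bind or import metals were measured as a list because lactoferrin is itself an iron-binding protein. Of 21 genes for iron, zinc and haem, 19 were tested, of which 9 rose and 5 fell, with a median change of 0.85, and only 3 fell with median-of-ratios scaling or without PBS replicate 2 or LPS replicate 2. Mt2, a metallothionein that binds zinc, was at 203, 174 and 189 FPKM with PBS and 3227, 3212 and 3866 FPKM with LPS, a change of 4.18 ± 0.43 (adjusted p = 1.98e-05). Its neighbour Mt1 rose by 2.47 ± 0.29, from 151 ± 4.94 to 843 ± 82 FPKM (SD, n = 3). Lcn2, which captures bacterial siderophores, was at 295, 232 and 306 FPKM with PBS and 2408, 899.6 and 2590.01 FPKM with LPS, a change of 2.68 ± 0.45 (adjusted p = 0.000496). Lcn2 was lowest in LPS replicate 2, which was also lowest of the LPS libraries for the other granule gene that rose, Ngp, described below.

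Tfrc, the transferrin receptor, rose from 12.6, 9.75 and 12 FPKM to 32.7, 43.3 and 31.1 FPKM, a change of 1.55 ± 0.23 (adjusted p = 0.000242). Slc40a1 (ferroportin), the iron exporter, fell from 7.14, 3.66 and 4.05 FPKM to 0.759, 0.355 and 0.504 FPKM, a change of -1.91 ± 0.32 (adjusted p = 0.000574). Steap3, an endosomal ferric reductase, changed by -2.12 ± 0.2 (adjusted p = 1.34e-05). Fth1, the ferritin heavy chain and the second most abundant transcript with LPS, was at 5332 ± 781 and 12560.3 ± 2102 FPKM (SD, n = 3), a change of 1.23 ± 0.37 (adjusted p = 0.016, short of the threshold without PBS replicate 1 or LPS replicate 1, adjusted p up to 0.0577). The light chain Ftl1 overlapped between the groups, at 2886, 2764 and 2762 and 3139.6, 1334 and 1592 FPKM. Hmox1, which breaks down haem, was at 146, 169 and 142 FPKM with PBS and 896, 165 and 235 FPKM with LPS and did not pass (adjusted p = 0.175). Its highest value was in LPS replicate 1, the library with the haemoglobin transcripts, and their part in that value was not tested.

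Ptx3, a soluble pattern receptor of the acute phase, was among the largest rises. It was at 0.517, 0.165 and 0.582 FPKM with PBS and 17.3, 12.6 and 55.1 FPKM with LPS, a change of 4.09 ± 0.55 (adjusted p = 0.000118), with replicate 3 several-fold above the other LPS libraries. Saa3, an acute-phase apolipoprotein of macrophages, was the most abundant of all transcripts with LPS at 18533, 19584 and 25739 FPKM, against 9171, 12926 and 12123 FPKM with PBS. Its change was 0.9 ± 0.32 (adjusted p = 0.0343, short of the threshold without PBS replicate 1 or 3 or any LPS replicate, adjusted p up to 0.118). The other most abundant transcripts with LPS were Lyz2, Slpi, Apoe, Eef1a1, Wfdc17, Mt2, B2m and Cxcl13. Slpi, an inhibitor of neutrophil elastase, rose by 0.82 ± 0.22 (adjusted p = 0.00863), and Lyz2 (lysozyme) at -0.55 ± 0.31 did not pass (adjusted p = 0.158).

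Of 23 genes of glycolysis and the hypoxia response, 10 rose and 3 fell, with a median change of 0.43. Pfkfb3, whose product speeds up phosphofructokinase, was at 15.9, 11.4 and 22.1 FPKM with PBS and 153, 104 and 191 FPKM with LPS, a change of 3.11 ± 0.28 (adjusted p = 8.54e-06), while its relative Pfkfb4 fell by 1.77. Hk2, an inducible hexokinase, rose by 1.78 ± 0.19, Hif1a by 1.17 ± 0.24, and Ldha, which makes lactate, by 1.02 ± 0.16. The other 2 that fell were Hk1 (-0.69) and Ndrg1 (-0.74, short of the threshold without PBS replicate 1 or 3 or LPS replicate 2 or 3, adjusted p up to 0.099). Of 20 genes of cholesterol synthesis, uptake and efflux, 3 rose and 5 fell, and the sign of their median (-0.08) changed with median-of-ratios scaling (0.05), where 5 rose, as 5 did without LPS replicate 3. Ch25h, whose product 25-hydroxycholesterol restrains sterol synthesis, was at 0.396, 0.503 and 0.214 FPKM with PBS and 18.1, 23.1 and 18.3 FPKM with LPS, a change of 3.92 ± 0.15 (adjusted p = 5.77e-08). Abcg1, a sterol exporter, changed by -1.86 ± 0.19.

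Of 18 tested of 19 aminoacyl-tRNA synthetases and stress-response genes, 11 rose and 0 fell by limma (0 at an unadjusted p under 0.05), with a median of 0.69. Chac1, a glutathione-degrading target of Atf4, rose from 0.727, 1.0 and 0.41 FPKM to 13, 15.4 and 5.58 FPKM, a change of 2.76 ± 0.3 (adjusted p = 2.69e-05), and Asns, the asparagine synthetase, by 2.33 ± 0.29 (adjusted p = 7.37e-05). Of 19 NRF2 and heat shock genes, 18 were tested. Of these 2 fell, Srxn1 (-1.28) and the catalase gene Cat, and 6 rose, all but Sod2 of them chaperones (Sod2 was short of the threshold without PBS replicate 1 or 3 or any LPS replicate, adjusted p up to 0.111). The 6 became 3 without PBS replicate 1 or 3 or LPS replicate 2. Of 22 cell death and inflammasome genes, 13 rose and 4 fell, with a median of 0.66, and 8 rose without PBS replicate 2. Mlkl, the executor of necroptosis, rose by 1.9 ± 0.18 (adjusted p = 1.09e-05), and Nlrp3, an inflammasome sensor, by 1.57 ± 0.3 (adjusted p = 0.00112). Ripk3, the kinase upstream of Mlkl, fell by 0.83.

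Of 17 tested of 20 genes of replication licensing and DNA synthesis, 14 rose and 0 fell by limma (0 at an unadjusted p under 0.05), with a median change of 1.07. Mcm2, a subunit of the replicative helicase, was at 7.86, 5.97 and 6.48 FPKM with PBS and 29.5, 41.8 and 25 FPKM with LPS, a change of 2.07 ± 0.24 (adjusted p = 4.47e-05). Mcm3, Mcm5, Mcm6 and Mcm7 rose by 1.98, 2.01, 1.71 and 1.74. Of 20 tested of 23 G1 cyclins and mitotic genes, 3 rose and 6 fell, a share near that of all genes. Ccnd1 (cyclin D1) was at 34, 46.5 and 32.2 FPKM with PBS and 2.47, 1.93 and 1.29 FPKM with LPS, a change of -3.74 ± 0.21 (adjusted p = 3.68e-07), while Ccnd2 (cyclin D2) went from 56.3, 34.2 and 53.5 to 259, 342 and 214 FPKM, a change of 2.48 ± 0.29 (adjusted p = 4.84e-05). Mki67 and Top2a, which mark dividing cells, overlapped between the groups. Mki67 was at 2.98, 3.96 and 3.95 FPKM with PBS and 3.21, 3.11 and 8.76 FPKM with LPS (adjusted p = 0.512), and Top2a changed by 0.21 ± 0.19 (adjusted p = 0.363). The inhibitor Cdkn1b (p27) fell by 1.27.

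Of 24 tested of 25 immediate early and AP-1 genes, 7 rose and 10 fell, and with median-of-ratios scaling 11 rose. Klf4, a regulator of monocyte and macrophage differentiation, was at 53.3, 33.6 and 40.4 FPKM with PBS and 3.58, 1.82 and 5.14 FPKM with LPS, a change of -3.31 ± 0.28 (adjusted p = 6.39e-06). Fos changed by -1.59 ± 0.44 (adjusted p = 0.0104), Fosb by -1.64 ± 0.34 and Jund by -1.38 ± 0.27. Batf, an AP-1 factor of lymphocytes and dendritic cells, rose by 2.04 ± 0.2, Ier3 by 2.01 ± 0.24 and Myc by 1.76 ± 0.2 (adjusted p = 4.14e-05).

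Of 24 tested of 26 adhesion and matrix genes, 16 fell and 6 rose, with a median change of -0.83. Icam1, the ligand of leukocyte integrins, rose by 1.82 ± 0.35, Mmp13, a collagenase, by 2.9 ± 0.26, and Mmp9, a gelatinase stored by neutrophils, changed by -2.42 ± 0.32 (adjusted p = 0.000117). Of 18 tested of 21 C-type lectins and CD300 receptors, 10 fell and 3 rose, with a median of -1.25. Cd300lb, an activating receptor that binds phospholipids, was at 28.4, 20.2 and 20.8 FPKM with PBS and 1.02, 0.248 and 0.856 FPKM with LPS, a change of -3.83 ± 0.18 (adjusted p = 1.72e-07). Clec7a (dectin-1), the beta-glucan receptor, was at 72.8, 41.5 and 41.5 FPKM and 8.3, 3.33 and 4.18 FPKM, a change of -3.11 ± 0.3 (adjusted p = 1.34e-05), and Clec4n (dectin-2) changed by -2.99 ± 0.3. The 3 that rose were Clec2d (0.84), Cd302 (0.55) and Clec4e (mincle, 1.04). Cd302 was short of the threshold without PBS replicate 1 or 3 or LPS replicate 1 or 3, adjusted p up to 0.139, and Clec4e short of the threshold without any PBS replicate or any LPS replicate or wild-type PBS replicate 1 or any wild-type LPS replicate, adjusted p up to 0.134. Of 17 tested of 20 scavenger and apoptotic cell receptors, 7 fell and 3 rose. Cd5l, a secreted scavenger protein of tissue macrophages, fell from 403 ± 48.7 to 83.4 ± 11.6 FPKM (SD, n = 3). The 3 that rose (1 without PBS replicate 1) were the Fc receptors Fcgr4 (1.6), Fcgr1 (0.91, short of the threshold without PBS replicate 1 or LPS replicate 2, adjusted p up to 0.055) and Fcgr2b (0.83, short of the threshold without any PBS replicate or LPS replicate 1 or 3 or wild-type LPS replicate 1 or 2, adjusted p up to 0.136).

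Other genes among the largest falls had no list of their own. Tmem37, a membrane protein, was at 25.5, 37.7 and 30.9 FPKM with PBS and 1.36, 0.439 and 1.22 FPKM with LPS, a change of -4.03 ± 0.3 (adjusted p = 2.96e-06). Slc9a3r2, a scaffold of membrane proteins, was at 18.9, 20.2 and 18.6 FPKM and 0.469, 0.269 and 0.213 FPKM, a change of -3.94 ± 0.16 (adjusted p = 9.95e-08). Every LPS library was under 0.5 FPKM there, beside PBS libraries that differed by under 2 FPKM. Rab7b, a small GTPase of late endosomes that is known to lower Tlr4, changed by -3.46 ± 0.15 (adjusted p = 1.12e-07), and Idh1, the cytosolic isocitrate dehydrogenase, by -3.48 ± 0.39 (adjusted p = 3.83e-05). Rasa3, a GTPase-activating protein, and Epha2, an ephrin receptor, changed by -3.63 and -3.56, Myadm by -3.47, AI467606 by -3.64, Trim47 by -3.48, Ank, a pyrophosphate transporter, by -3.43, and Rfx2 by -3.37. Among the rises, Ctla2b, whose product resembles the propeptide of cathepsins, was at 1.21, 3.01 and 2.99 FPKM with PBS and 65.2, 37.9 and 55.1 FPKM with LPS. Ctla2b, Tgtp1, Tgtp2, Ifi205, Bcl2a1b, Bcl2a1d and the alpha globins have close copies in the genome, so the split of reads between copies is uncertain.

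Antigen presentation genes fell in part, and costimulatory genes rose in part. Of 12 tested of 13 MHC class II genes, 7 fell and 0 rose by limma (0 at an unadjusted p under 0.05), with a median change of -1.20. H2-Ob, part of the inhibitor of peptide loading in B cells, was at 20.6, 15 and 26.8 FPKM with PBS and 2.57, 6.51 and 3.36 FPKM with LPS, a change of -2.12 ± 0.31 (adjusted p = 0.000234). H2-DMb1, a chain of the peptide loader, changed by -1.27 ± 0.46 (adjusted p = 0.0367, short of the threshold without PBS replicate 1 or 3 or LPS replicate 1 or 3 or wild-type LPS replicate 2, adjusted p up to 0.152), and its groups overlapped. The classical chains H2-Aa and H2-Ab1 did not pass, at -0.57 ± 0.38 (adjusted p = 0.227) and -0.31 ± 0.31 (adjusted p = 0.413). Of 14 tested of 16 costimulatory and checkpoint ligands, 7 rose and 2 fell. Slamf1, a self-ligand of lymphocytes and phagocytes, was at 1.22, 0.879 and 0.895 FPKM with PBS and 16.8, 20.9 and 19.4 FPKM with LPS, a change of 3.32 ± 0.15 (adjusted p = 1.53e-07), and Cd40 rose by 1.74 ± 0.19 and Cd274 (PD-L1) by 2.28 ± 0.22. Vsir (VISTA), an inhibitory ligand of myeloid cells, was at 67.3, 66.5 and 59.99 FPKM with PBS and 10.8, 6.42 and 10.1 FPKM with LPS, and Cd48 was the other that fell (-0.38, short of the threshold without PBS replicate 1 or 3 or LPS replicate 1 or 2, adjusted p up to 0.0633).

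Of 22 complement and coagulation genes, 3 rose and 4 fell. F3 (tissue factor), which starts coagulation, rose from 1.22, 1.66 and 0.915 FPKM to 9.24, 21 and 14.2 FPKM, a change of 2.75 ± 0.28 (adjusted p = 2.17e-05). Thbd (thrombomodulin), which restrains it, was at 4.03, 7.56 and 9.25 FPKM with PBS and 0.78, 0.376 and 0.273 FPKM with LPS, a change of -2.38 ± 0.32 (adjusted p = 0.000132). The starter and the brake of the same cascade therefore moved in opposite directions. Procr, the protein C receptor (1.8), and Cfb, complement factor B (1.16), were the others that rose, and C3ar1, Pros1 (-1.17, short of the threshold without PBS replicate 2, adjusted p 0.0546) and F5 (-1.08, short of the threshold without PBS replicate 2 or 3 or LPS replicate 2 or 3, adjusted p up to 0.0703) the others that fell. The count that fell ranged from 2 without PBS replicate 2 to 7 without wild-type PBS replicate 3.

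Marker lists of 13 cell types were measured in the same libraries, and in bulk RNA fewer cells of a type and less RNA per cell cannot be told apart. Among 22 markers of large peritoneal macrophages, 15 fell and 1 rose, with a median change of -1.20. Their summed level was 7646, 10649.8 and 10409 FPKM with PBS and 6277, 5735 and 5538 FPKM with LPS, without overlap, and none of the list was at 0 in all 6 libraries. The falls ranged widely. Tgfb2, a secreted growth factor, was at 10.4, 14.5 and 11.8 FPKM with PBS and 0.202, 0.446 and 0.197 FPKM with LPS, a change of -3.36 ± 0.73 (adjusted p = 0.00261), whereas Adgre1 (F4/80) changed by -1.02 ± 0.25 (adjusted p = 0.00507). Gata6, the factor that defines these cells, was at 18.8, 27.5 and 21.2 FPKM and 17.5, 9.48 and 11.6 FPKM, a change of -0.78 ± 0.25 (adjusted p = 0.0191, short of the threshold without PBS replicate 2 or LPS replicate 2 or 3, adjusted p up to 0.0826). The marker that rose was Selp (P-selectin), by 1.7 ± 0.32 (adjusted p = 0.00102). Arg1, described above as an enzyme, is also in this list. The part of a change in macrophage number in the falls of lectins, receptors and lipid enzymes was not tested.

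B cell markers fell in 13 of 20 and rose in 0 by limma (0 at an unadjusted p under 0.05), with a median of -1.35 and summed levels of 1461, 1133 and 1519.7 FPKM with PBS and 576, 635 and 359 FPKM with LPS. Cd79b, a chain of the B cell receptor complex, was at 235, 182 and 239.7 FPKM with PBS and 47.3, 26.1 and 23.3 FPKM with LPS, a change of -2.79 ± 0.33 (adjusted p = 5.64e-05), and Ms4a1 (CD20) changed by -2.39 ± 0.36. The factors Pax5 and Ebf1 did not pass, at 0.03 and -0.19. MHC class II genes fell in the same libraries as these markers, and the part of B cells in that fall was not tested.

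Natural killer and cytotoxic markers rose in 5 of 11 tested, from a list of 16, and fell in 1 (Klrd1, -0.55), with a summed level of 315, 406 and 408 FPKM with PBS and 947, 1233 and 931 FPKM with LPS. The 5 were Ifng, Gzmb, Ccl5, Tbx21 and Gzma, which are activation and effector genes (Gzma was short of the threshold without PBS replicate 2 or 3 or any LPS replicate or wild-type PBS replicate 1 or any wild-type LPS replicate, adjusted p up to 0.181). Gzmb, the granule protease granzyme B, was at 8.74, 7.96 and 7.56 FPKM with PBS and 39.2, 42.9 and 22.7 FPKM with LPS, a change of 1.94 ± 0.39 (adjusted p = 0.0016), and Tbx21 (T-bet), which drives Ifng, changed by 1.49 ± 0.28. Gzmb thus made up little of the summed level, and Ccl5 is also in the list of chemokines. The lineage receptors Klrb1c (-0.26) and Klrk1 (0.41) did not pass. T cell markers rose in 1 (Il7r, 0.95) and fell in 3 of the 14 tested of 18, namely Cd5 (-0.76), Thy1 (-0.85, short of the threshold without PBS replicate 3 or LPS replicate 2 or 3, adjusted p up to 0.0743) and Cd28 (-0.41, short of the threshold without PBS replicate 1 or 3 or LPS replicate 2 or 3 or wild-type LPS replicate 3, adjusted p up to 0.174).

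Of 13 markers tested of 19 for small peritoneal macrophages and dendritic cells, 4 rose and 3 fell. Batf3 (1.87 ± 0.37), Irf4 (1.84 ± 0.27), Ccr7 and Cd209a (0.82, short of the threshold without PBS replicate 1 or 3 or LPS replicate 1 or 2, adjusted p up to 0.102) rose, the first pair being factors of dendritic cells, while Itgax (CD11c) fell by 1.78. Monocyte markers rose in 3 and fell in 7 of 15 tested of 16, with Ly6c2 at -1.46 ± 0.33 (adjusted p = 0.00351). Hp, which rose, was at 301, 181 and 317 FPKM with PBS and 891, 505 and 2358 FPKM with LPS. The summed level of the monocyte list overlapped between the groups. It was 2906, 3221 and 2844 FPKM with PBS and 2253, 1533 and 4014 FPKM with LPS. Eosinophil markers fell in all 3 tested, Il5ra (-1.33), Ear2 (-0.75) and Alox15, which is also in the list of large peritoneal macrophage markers. The rest of the list of 10 did not reach a mean of 1 FPKM and was not tested. Of the list, 2 were at 0 in all 6 libraries. Of 11 mast cell markers tested of 13, Gata2 fell (-0.57, short of the threshold without PBS replicate 1 or 2 or any LPS replicate, adjusted p up to 0.159), and of 5 mesothelial and fibroblast markers tested of 14, Krt8 fell (-0.95, short of the threshold without any PBS replicate or LPS replicate 1 or 3, adjusted p up to 0.0992). Without wild-type PBS replicate 2, 5 mast cell markers fell, and 3 without wild-type PBS replicate 3. Without wild-type LPS replicate 2 or 3, 2 mesothelial and fibroblast markers fell. Pf4 rose (0.71, short of the threshold without PBS replicate 3, adjusted p 0.054) among 2 platelet markers tested of 9. Of 6 erythroid markers tested of 12, 0 passed by limma and 0 at an unadjusted p under 0.05, with Hba-a1 at 609.6, 7.84 and 2.65 FPKM and Hbb-bs at 868, 4.25 and 1.06 FPKM in the LPS libraries, and without LPS replicate 1 their median change went from 1.66 to -0.61.

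Neutrophil genes did not move as a block. Of 22 markers of mature neutrophils, 3 rose and 6 fell, both shares somewhat below those of all genes tested. Their summed level was 6963, 3550.03 and 4929.6 FPKM with PBS and 8004, 5941 and 7218 FPKM with LPS, with overlap. Slpi, among the 10 most abundant transcripts with LPS, is in this list, and the sum is weighted to it. Padi4, which citrullinates histones, fell from 139, 159 and 114 FPKM to 33.9, 25.7 and 26.5 FPKM, a change of -2.22 ± 0.34 (adjusted p = 0.000286). Hcar2, a receptor for niacin and ketone bodies, rose by 1.81 ± 0.23, as did Fpr1 and Slpi. The calprotectin genes S100a8 and S100a9 varied within each group as much as between them. S100a8 was at 1292, 474 and 519 FPKM with PBS and 1241, 319.5 and 843 FPKM with LPS (adjusted p = 0.972), highest in replicate 1 of each group. S100a9 and Retnlg were also highest in replicate 1 of each group, with Retnlg at 182, 54.4 and 46.7 and 139.8, 34.5 and 82.4 FPKM.

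Of 16 genes on the neutrophil granule list, 8 were tested, 2 of which rose and 3 fell. Which cells of the lavage expressed them was not tested. The summed level of the 16 was 11391, 12582 and 11459 FPKM with PBS and 11073, 7394 and 11122 FPKM with LPS, lower without overlap. That sum is weighted to abundant members such as Lyz2, among the 10 most abundant transcripts with LPS, whose own change did not pass. Ngp, Prtn3 and Cebpe, described next, weigh little in it. Ngp, a protein of the secondary granules that also hold lactoferrin, was at 0.445, 0.0753 and 0.559 FPKM with PBS and 22.2, 8.2 and 30.8 FPKM with LPS, a change of 3.82 ± 0.46 (adjusted p = 6.19e-05). Lcn2 was the other that rose. Prtn3, proteinase 3 of the primary granules, fell from 9.19 ± 2.28 to 1.27 ± 0.252 FPKM (SD, n = 3), and Cebpe, the factor that drives secondary granule genes, was at 5.12, 2.82 and 3.05 FPKM with PBS and 0.362, 0.0891 and 0.216 FPKM with LPS, a change of -1.91 ± 0.22 (adjusted p = 4.27e-05). Serpinb1a fell by 2.32. Ngp and Cebpe thus moved in opposite directions.

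**Figure D3:**
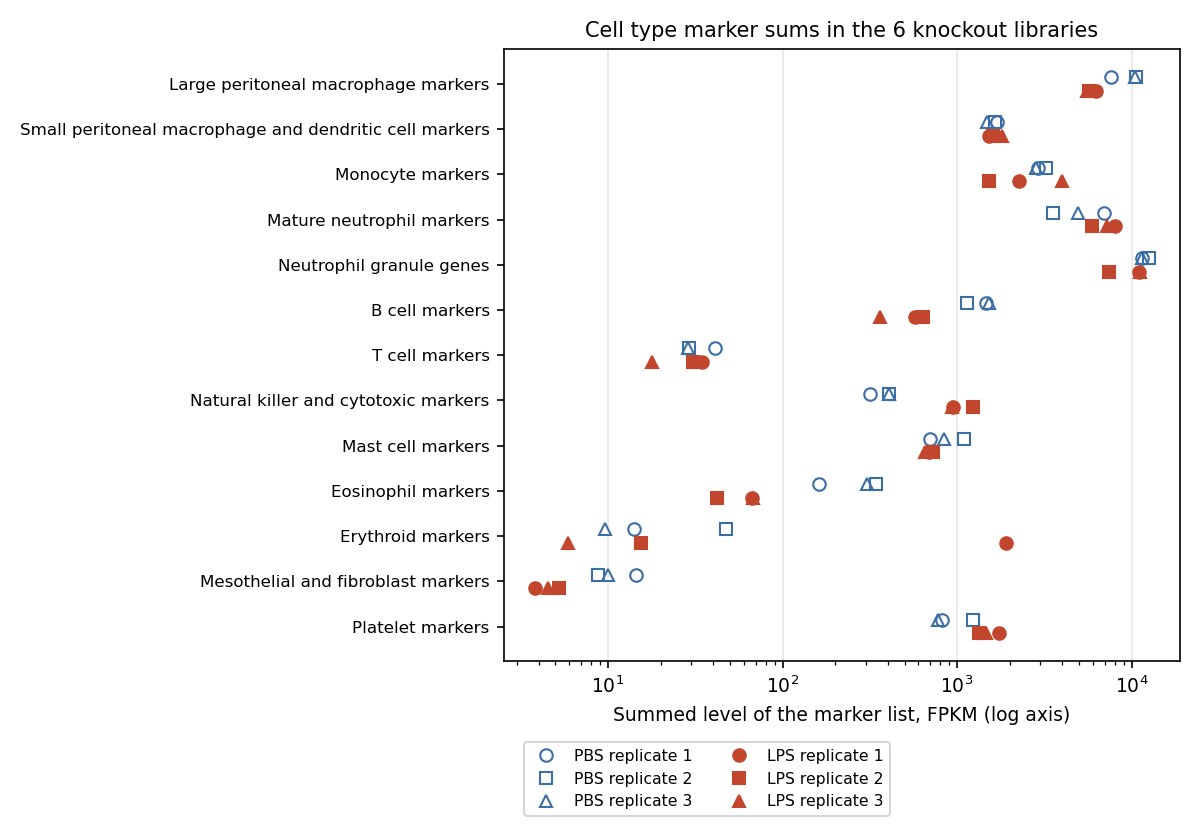
Summed FPKM of 13 cell type marker lists in each of the 6 knockout libraries, on a log axis, with open blue symbols for PBS, filled red symbols for LPS and a shape for each replicate number. The LPS libraries lie below the PBS libraries for large peritoneal macrophage, B cell, eosinophil, mesothelial and fibroblast, and neutrophil granule lists and above them for natural killer and cytotoxic and for platelet lists, and LPS replicate 1 alone reaches 1895 FPKM for erythroid markers. Each sum is weighted to the most abundant members of its list, such as Lyz2 for granule genes and Slpi for mature neutrophils. In the natural killer and cytotoxic list the genes that rose were activation and effector genes. Its lineage receptors Klrb1c and Klrk1 did not pass, and Klrd1 fell. Of 9 platelet markers, 2 reached a mean of 1 FPKM and were tested, and Pf4 alone passed. Of 10 eosinophil markers, 3 were tested, among them Alox15, which is also in the large peritoneal macrophage list.

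Some abundant genes varied widely among the 3 LPS libraries. Of 1073 genes whose mean level in them reached 50 FPKM, 18 had an SD of at least 1 on the log2(FPKM + 1) scale, a choice made after the values were seen. Globins, S100a8, S100a9 and Retnlg were among them, as were 4 genes of chromosome 17. H2-Eb1, an MHC class II chain at chr17:34305867-34316674, was at 226, 169.6 and 471 FPKM with PBS and 7.72, 412 and 112 FPKM with LPS, so it spanned more than an order of magnitude among libraries of the same group, and its change of -1.83 ± 1.3 did not pass (adjusted p = 0.257). Rps2, a ribosomal protein gene at chr17:24718116-24721929, was at 521, 562 and 534 FPKM with PBS and 78.8, 754 and 69.6 FPKM with LPS. LPS replicates 1 and 3 were low and replicate 2 was not. Rps18 (chr17:33951999-33956001) was at 108, 907 and 399 FPKM and H2-T23 (chr17:36029773-36032855) at 19.1, 173 and 70.6 FPKM in the LPS libraries, both lowest in replicate 1. Of 27 small-subunit ribosomal protein genes, 0 fell by limma (0 at an unadjusted p under 0.05), with a median of 0.14.

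**Figure D4:**
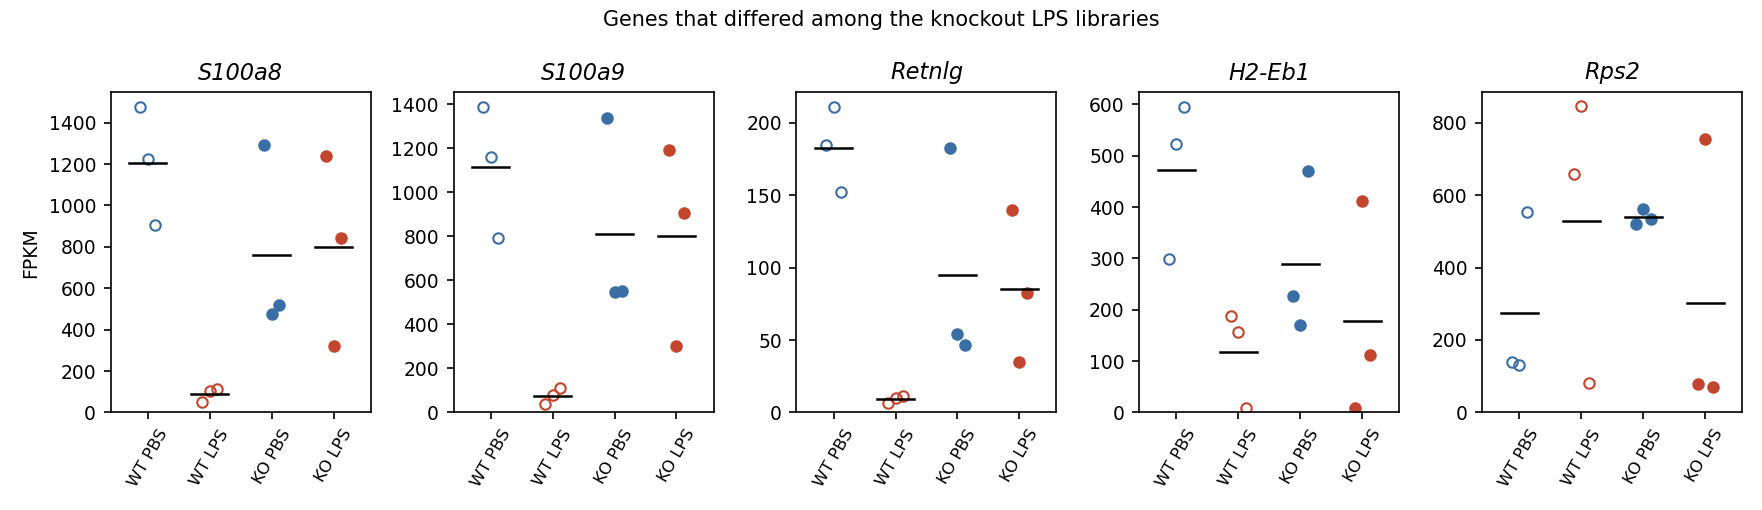
FPKM of S100a8, S100a9, Retnlg, H2-Eb1 and Rps2 in all 12 libraries. Each circle is a library, open for wild type (WT) and filled for knockout (KO), blue for PBS and red for LPS, and horizontal lines are group means. In the knockout LPS group H2-Eb1 spans 7.72 to 412 FPKM and Rps2 spans 69.6 to 754 FPKM.

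Whether the knockout response differed from that of wild type was tested as a difference of changes, knockout less wild type, in the same fit. Of 9841 genes, 4 passed with a higher value in the knockout and 0 with a lower one (0.0406% in all, limma), while 946 (9.61%) had an unadjusted p under 0.05 (485 higher, 461 lower). The median SE of this difference was 0.20. Differences several times that size could also go uncalled, since the smallest of the 4 called was 1.15. Egr1, an immediate early factor, was at 14.5, 14 and 10.4 FPKM with PBS and 13.8, 13.9 and 18.6 FPKM with LPS in the knockout, with overlap, and at 27.8, 23 and 25.5 and 8.98, 9.98 and 8.95 FPKM in wild type, without. The changes were 0.24 ± 0.14 and -1.36 ± 0.14, and they differed by 1.59 ± 0.2 (adjusted p = 0.0344). Hbegf, a growth factor that binds the EGF receptor, was at 0.495, 0.566 and 0.553 and 2.04, 2.86 and 2.52 FPKM in the knockout, and at 2.48, 1.66 and 1.88 and 1.59, 1.73 and 1.38 FPKM in wild type, where the groups overlapped, a difference of 1.39 ± 0.18 (adjusted p = 0.0344).

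Csrnp1, a nuclear protein induced by axin, was at 8.04, 6.3 and 6.35 and 10.8, 13.3 and 10.7 FPKM in the knockout and at 16, 14.9 and 13.5 and 9.95, 10.1 and 11.1 FPKM in wild type. It rose in the knockout (0.68 ± 0.12) and its change in wild type was -0.47 ± 0.12, a difference of 1.15 ± 0.16 (adjusted p = 0.0446). Egr2 fell in the knockout by less than in wild type, with changes of -0.83 ± 0.13 and -2.16 ± 0.13, a difference of 1.33 ± 0.19 (adjusted p = 0.0446). In all 4 genes the 3 knockout PBS libraries were below the 3 wild-type PBS libraries. The 4 calls did not hold with the replicate block (adjusted p from 0.102 to 0.132) or when certain single libraries were left out. None was made when any of knockout PBS replicate 2 or 3, knockout LPS replicate 1 or 3, wild-type PBS replicate 1 or any wild-type LPS replicate was left out. In contrast 43 genes were higher and 6 lower without wild-type PBS replicate 3, 35 higher and 1 lower without knockout LPS replicate 2, and 11 higher without knockout PBS replicate 1.

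**Figure D5:**
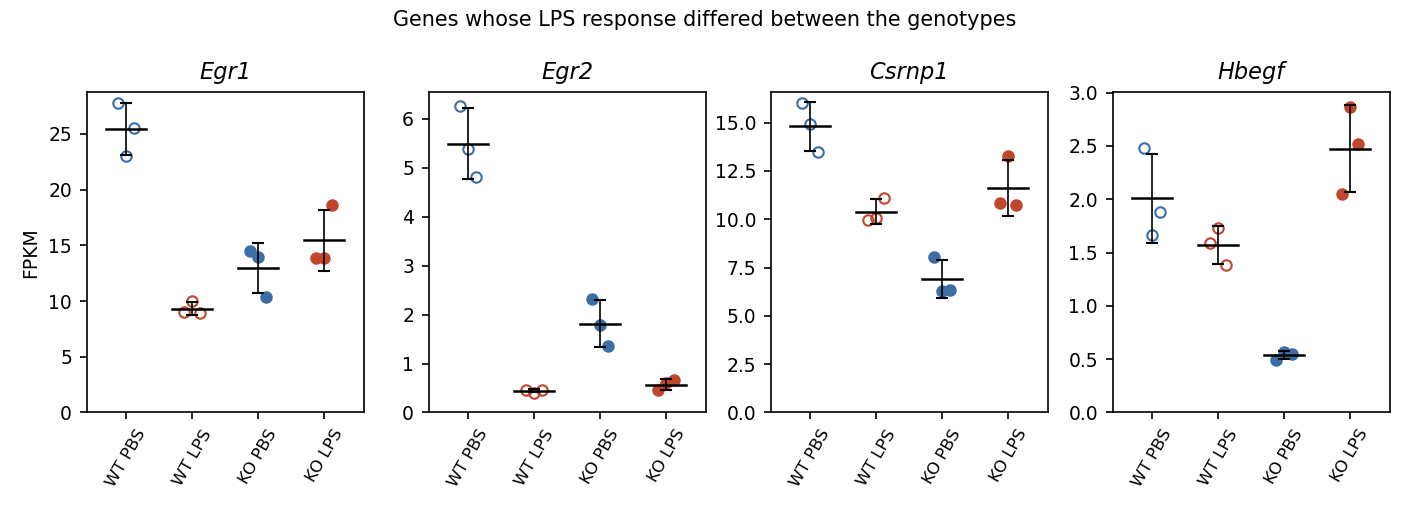
FPKM of Egr1, Egr2, Csrnp1 and Hbegf in all 12 libraries, open circles for wild type (WT) and filled for knockout (KO), blue for PBS and red for LPS. Horizontal lines are group means and error bars the SD (n = 3), and the knockout PBS group lies below the wild-type PBS group in each panel.

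For the genes that led the knockout response the difference from wild type did not pass. The difference was 0.12 ± 0.44 for Nos2, 0.44 ± 0.32 for Csf3, -0.35 ± 0.63 for Cxcl10 and 0.21 ± 0.24 for Ccr2 (adjusted p from 0.669 to 0.944). Larger differences that also did not pass were those of Ccl4 (1.61 ± 0.25, adjusted p = 0.0524), Il1b (2.24 ± 0.45, adjusted p = 0.124) and Ngp (3.03 ± 0.65, adjusted p = 0.181). Il1b changed by -0.84 in wild type, and Ngp by 0.79. S100a8, at 1477, 1224 and 907 FPKM with PBS and 51.4, 103 and 116 FPKM with LPS in wild type, differed by 3.8 ± 0.72 (adjusted p = 0.106). These values do not show that the responses were alike, since the spread between libraries leaves wide intervals. The strain is known from the labels alone, and whether all libraries share a genetic background was not tested. Ifi202b, described under other observations, was near 0 in some knockout libraries and in no wild-type library.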

How the data were processed

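The authors deposited 1 table per library with gene symbols and values whose unit is not stated, taken here as FPKM because they are not whole, sum to 343874 to 388129 and because Cufflinks is named. The submitters' processing notes name TopHat, Cufflinks, HTSeq, DESeq and GRCm38, without roles, order or versions. No source used here states the use of strand, so overlapping and antisense genes cannot be told apart. Of 21878 rows, 27 whose symbols had become dates were left out, and 5228 of the rest were at 0 throughout. Low values gave relative depths of 0.928 to 1.03 of knockout PBS replicate 1, but only 6.06% to 17.9% of gene pairs had a ratio within 2% of the modal value. Whole reads could therefore not be recovered, and no count model was used.

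Genes reaching a mean level of 1 FPKM across the 12 libraries were fitted on log2(FPKM + 1) with limma 3.58.1 (R 4.3.3, statmod 1.5.0), with a mean for each of 4 groups of 3 libraries, 8 residual degrees of freedom, trended and robust variances and no replicate block. The script was tested on simulated data. The alternatives were other pseudocounts (0.1 and 5 FPKM), no filter or a minimum of 5 FPKM, other scalings, no trend, the knockout libraries alone, the replicate block and each library left out.

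The genes named were the 15 largest rises and 15 largest falls among called genes with a higher group mean of at least 5 FPKM and no overlap of the knockout groups, without predicted genes or receptor segments. Each of 38 lists contributed up to 4 of its called members, by size of change, or up to 2 of the highest level where none was called, with up to 8 genes each way for the difference between the genotypes, the 10 most abundant genes with LPS, and Ltf. Others were added after their values were seen. The members and lists were chosen with earlier results of these data known. Mitochondrially encoded, Mx and immunoglobulin or T cell receptor segment genes, Xist, Y-linked genes and a few others are not reported here. Positions come from GENCODE M21 and promoters from RefSeq. Figures were drawn with Python 3.11.15 and matplotlib 3.10.9.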

Additional observations from a re-analysis of the deposited data

Results flagged for a closer look

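The test of the difference between the genotypes' LPS responses was passed by 4 genes with the settings used for the report, and missed by each of them in most of the alternatives run for it. The knockout change less the wild-type change, on the log2(FPKM + 1) scale, was 1.59 for Egr1, 1.39 for Hbegf, 1.33 for Egr2 and 1.15 for Csrnp1. Egr1 missed the threshold in 11 of 21 alternatives, Egr2 in 13 of 20, Csrnp1 in 14 of 21 and Hbegf in 12 of 20. Over the alternative settings the adjusted p ranged from 0.0184 to 0.159 for Egr1 and Hbegf and from 0.0184 to 0.226 for Egr2 and Csrnp1. Every one of these differences kept its direction, and its size ranged from 1.27 to 1.71 for Egr1 and from 0.52 to 2.33 for Hbegf, the ends of the latter with pseudocounts of 5 and 0.1 FPKM. Egr2 (2.31, 1.78 and 1.35 FPKM with PBS and 0.45, 0.596 and 0.665 FPKM with LPS in the knockout) and Hbegf were under 3 FPKM in every knockout library, where the depth in reads is unknown.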

How the results depend on the processing

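The threshold was passed in the same direction under every alternative in which they were tested by 182 of 220 genes followed by name that changed with LPS in the knockout, and none of the 220 reversed. Of the 220, 198 reached a minimum mean of 5 FPKM. A minimum mean of 5 FPKM left 2057 genes lower. With single libraries left out in turn, 1521 to 2132 genes were higher and 2735 to 3620 lower. Upper-quartile scaling gave 2122 higher and 3188 lower. For the difference between the genotypes, the number higher was 2 with a pseudocount of 5 FPKM, 0 without a filter, 1 with a minimum mean of 5 FPKM, 8 with median-of-ratios scaling, 9 with upper-quartile scaling, 7 without trend and robust fitting, and 0 without the 2 libraries rich in erythroid transcripts, an alternative chosen after seeing the data. It was 0 to 43 with single libraries left out. The number lower was 1 without a filter and 0 to 6 with single libraries left out. The causes were not tested, beyond fewer genes tested under a stricter filter and fewer libraries when some are left out. The knockout less wild-type difference of Ltf was -2.24 with PBS and -1.49 with LPS at a pseudocount of 0.1 FPKM, and ranged from -1.06 to -0.85 and from -0.66 to -0.17 with single libraries left out. Changes that had not passed reversed with single libraries left out, over ranges of -0.17 to 0.010 for Cdk1, -0.36 to 0.31 for Cxcl13, -0.97 to 0.58 for H2-T23, -0.61 to 3.08 for Hba-a1, -0.99 to 3.37 for Hbb-bs, -0.37 to 0.87 for Ifit2, -0.35 to 0.82 for Ifit3, -0.13 to 0.25 for Pax5, -0.36 to 0.026 for Ebf1, -0.15 to 0.48 for Mki67, -0.53 to 0.54 for Retnlg, -1.17 to 0.36 for Rps18, -0.39 to 0.58 for S100a8 and -0.50 to 0.49 for S100a9. Scaling by median of ratios gave 0.14 for Cxcl13, 0.069 for Retnlg and 0.043 for S100a9, and upper-quartile scaling 0.014 for Cxcl13. Without the libraries rich in erythroid transcripts the values were 0.58 for H2-T23, -0.61 for Hba-a1, -0.99 for Hbb-bs, -0.0050 for Ifit2, -0.088 for Ifit3, 0.36 for Rps18, -0.39 for S100a8 and -0.024 for Pax5. Replicate numbers do not show pairing: same-numbered deviations correlated at 0.19, -0.16 and -0.08 in the knockout, and 1 of 3 matched its own number best. With the replicate block 1724 genes were higher and 2960 lower, and 3 genes were higher and 0 lower for the difference between the genotypes, none of them Egr1, Egr2, Csrnp1 or Hbegf (adjusted p from 0.102 to 0.132). The depth in reads is unknown, which limits genes near 1 FPKM most.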

Other observations

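Ifi202b, an interferon-inducible DNA-binding protein gene, was present in some libraries of a group and near 0 in others. It was at 23.2, 0.209 and 0.0478 FPKM in the knockout PBS libraries and 73.1, 77.3 and 0.0463 FPKM in the knockout LPS libraries, and at 13, 56.1 and 33.8 and 69.5, 65.1 and 56.8 FPKM in the wild-type PBS and LPS libraries. Knockout PBS replicates 2 and 3 and knockout LPS replicate 3 were thus under 0.3 FPKM, and every wild-type library was above 10 FPKM. It was chosen after its values were seen, and its change with LPS in the knockout, 2.54 ± 1.66, did not pass (adjusted p = 0.221, limma). The strain of these libraries is known from the labels alone and was not tested. Low values of H2-Eb1, Rps2, Rps18 and H2-T23 also occurred in wild type, where LPS replicate 3 was at 9.12 FPKM for H2-Eb1, 81.3 FPKM for Rps2, 104 FPKM for Rps18 and 18.5 FPKM for H2-T23. These are close to the values of knockout LPS replicate 1, 7.72, 78.8, 108 and 19.1 FPKM.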
